A study of Mus musculus with 10 samples.

Results

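Gene expression was described in hematopoietic stem cells (HSCs) of 18-month old wild-type mice, measured on 5 of the 10 arrays in the series. The labels call the arrays replicates and do not say whether each came from a separate animal, so the spread between arrays may be partly technical. The arrays were chosen by their labels as the wild-type (WT) group, and are named WT1 to WT5 after the replicate number in the label. All mice were of the strain C57BL/6J and had wild-type Ahr, the gene of the aryl hydrocarbon receptor, and the labels name neither a treatment nor the sex. Bone marrow was first depleted of cells carrying lineage antigens, and SLAM+ HSCs were then collected from the remaining cells. RNA was amplified from this small amount of material and hybridized to Affymetrix Mouse Gene 2.0 ST arrays. The other arrays of the series, from Ahr knockout animals of the same age, were not used here. Of 41345 probe sets, 23525 carried exactly 1 gene symbol, and the brightest probe set of each symbol gave 22184 genes. Of these, 1082 had more than 1 probe set.

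HSCs sit at the top of the blood lineage tree: they renew themselves and produce every type of blood cell. Most of them rest outside the cell cycle in adult marrow, close to stromal and endothelial cells that supply CXCL12 and stem cell factor. The SLAM gate selects cells that carry CD150, the product of Slamf1, and lack CD48. With age the HSC pool of mice grows and its output shifts toward myeloid cells and platelets.

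Signal is given as log2(signal + 16), and the error is the SD over the 5 arrays (n = 5 throughout). A percentile is the share of the 22184 genes with a mean signal at or below that of the gene. It ranks the signal of probe sets, which differ in how strongly they respond, and is no count of molecules. Nor can a bulk array tell fewer cells of a type from less RNA per cell. The number of arrays limits the precision of every SD. The 5 arrays had almost identical distributions of signal, with a median of 24.7 and a highest value of 38558 over all probe sets.

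As a guide to background, the 1463 olfactory, vomeronasal and taste receptor and keratin-associated protein genes were used, which HSCs are not known to express. Their median mean signal was 4.43 on the log2 scale, and 95% of them lay at or below 5.51, a signal of 29.5. This value served as the background limit and corresponded to the 45.6th percentile. Above it lay 12078 genes (54.4%), of which 9671 exceeded the limit in all 5 arrays, while 7536 genes exceeded it in 0 arrays. One member of these families stood far out: Vmn1r233, a vomeronasal receptor, had signals of 11.51, 11.40, 11.35, 11.27 and 11.43 in WT1 to WT5 and reached the 99.6th percentile. A high rank of a single probe set therefore need not mean that its named gene is expressed.

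**Figure D1:**
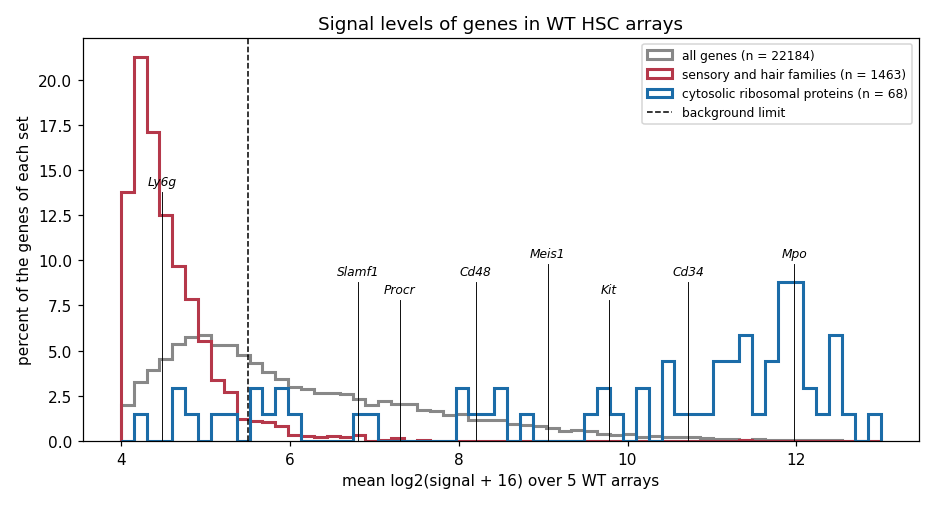
Distribution of the mean log2(signal + 16) over the 5 WT arrays (x axis) as a percent of each set (y axis), for all 22184 genes, the 1463 sensory and hair family genes and the 68 cytosolic ribosomal protein genes. The dashed line is the background limit at 5.51, and vertical lines place 8 named genes, of which only Ly6g lies left of it.

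The brightest genes were dominated by the translation machinery. Of the 20 genes with the highest mean signal, 9 encode cytosolic ribosomal proteins and 2 are mitochondrially encoded. The first was Rplp1, a protein of the ribosomal stalk, with 13.09, 13.02, 12.90, 13.09 and 12.87 in WT1 to WT5. B2m, the light chain of MHC class I, came next at 12.87 ± 0.06. Rpl28 (12.66 ± 0.08), Rpl27 (12.49 ± 0.08), Rpl13 (12.46 ± 0.05), Rpl35 (12.45 ± 0.10) and Rpl41 (12.45 ± 0.09) followed. Rps12, Rpl32 and Rps9 completed the ribosomal members of this group. The remaining places went to Rn7sk, the small nuclear RNA that holds back transcription elongation, and to Ly6e, Tuba1b, Gpx1, Hspa8 and H2ax. Ly6e is a membrane protein of the Ly6 family, Tuba1b an alpha tubulin, Gpx1 a glutathione peroxidase, Hspa8 the constitutive HSP70 chaperone and H2ax a histone variant. The mitochondrial members were ND4 (12.33 ± 0.10) and ND3 (12.30 ± 0.04), subunits of respiratory complex I. Among the 100 brightest genes, 29 were cytosolic ribosomal protein genes and 9 were mitochondrially encoded.

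Both Cnbd2 (12.40 ± 0.11) and Odf1 (12.10 ± 0.09), which are known from sperm, also stood among the 20 brightest genes. Each rested on 1 of its probe sets alone. The other 2 probe sets of Cnbd2 had means of 5.38 and 4.99, and the second one of Odf1 had 4.82, all below the background limit. Probe sets of ribosomal genes disagreed too, since the second one of Rplp1 had a mean of 9.26. Levels of genes with several probe sets are therefore upper values.

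Over the whole family, 62 of 68 cytosolic ribosomal protein genes lay above the background limit and 37 in the top 1%, with a median percentile of 99.4 beside 50 for all genes. Its lowest members were Rpl32l (4.2nd percentile) and Rps15 (14.2nd percentile). Ribosomal protein mRNAs typically start with an unbroken run of C and T, the 5′ terminal oligopyrimidine tract, through which mTOR signaling controls their translation. The RefSeq promoter table (GRCm38.p6) held 53 of the 68 genes, and each gene's first entry was searched from 25 bases before the annotated start to 25 bases from it, on the gene's own strand only. A run of 8 or more C or T was present in 28 of the 53 (52.8%), against 19.4% of the 27025 genes of the table and 18.9% of the 9599 that were above the background limit. The windows of the 6 brightest ribosomal genes with an entry are shown because ribosomal protein genes were the most frequent family among the 20 brightest genes. Capitals mark the longest run of C or T, which reached 18 bases in Rpl35 but only 3 in Rpl41.
Rpl28, chr7:4792940-4792989 (+): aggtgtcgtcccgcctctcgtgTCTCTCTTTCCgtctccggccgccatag
Rpl27, chr11:101442220-101442269 (+): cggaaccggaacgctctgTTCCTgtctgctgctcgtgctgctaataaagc
Rpl13, chr8:123102325-123102374 (+): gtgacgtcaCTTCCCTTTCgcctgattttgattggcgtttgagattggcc
Rpl35, chr2:39005107-39005156 (-): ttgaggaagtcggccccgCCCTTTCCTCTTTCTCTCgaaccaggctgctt
Rpl41, chr10:128549144-128549193 (-): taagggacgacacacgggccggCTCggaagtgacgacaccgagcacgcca
Rps12, chr10:23787185-23787234 (-): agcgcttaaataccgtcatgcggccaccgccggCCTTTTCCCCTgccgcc
The match of letters is a description and says nothing of how these mRNAs were translated.

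Other housekeeping groups also ranked high. All 10 mitochondrially encoded genes lay at or above the 99.5th percentile, with a median percentile of 99.8, above that of the ribosomal family. Actin and small cytoskeletal genes had a median percentile of 98.9 (20 of 20 above the limit), heat shock and chaperone genes 97.7 (19 of 21), hnRNP and splicing factors 97.2 (44 of 47), nuclear-encoded respiratory subunits 96.7 (70 of 75) and proteasome subunits 93.5 (46 of 47). The chaperone exceptions were Hspa1a (10.2nd percentile) and Hspa1b (27.2nd), the stress-inducible HSP70 genes. Antioxidant genes had a median percentile of 93.3 (20 of 20) and glycolysis genes 89.3 (17 of 17). Below them came the mitochondrial ribosomal proteins at 85.6 (68 of 71). Toward the bottom lay keratins (37.0, 16 of 49), cytochrome P450 genes (21.6, 16 of 97), serpins (19.1, 11 of 54), defensins (15.4, 8 of 55) and olfactory receptors (9.01, 55 of 1089).

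Genes known from HSCs were described next. Their levels do not check the labels, since no other cell type was compared and the lists were chosen with earlier results known. Of 37 transcription factors known from HSCs, 36 lay above the background limit and 14 in the top 10%, with a median percentile of 87.4. Myb, a factor of stem and progenitor cells, stood at the 99.2nd percentile and Spi1, the myeloid factor PU.1, at the 98.7th. Hlf, a factor largely restricted to HSCs within the blood system, had 10.09, 10.03, 9.88, 10.03 and 10.17 in WT1 to WT5 (97.9th percentile). Meis1, a HOX cofactor, had 9.16, 9.09, 8.93, 8.96 and 9.14 (94.7th percentile). Both were nearly the same in every array. Gata2 varied more, with 9.25, 8.42, 8.03, 8.20 and 9.34 (92.4th percentile), and so did Mecom, which maintains long-term HSCs, with 8.72, 7.90, 7.67, 7.89 and 8.74 (88.9th percentile). In both of these WT1 and WT5 were higher than the other 3 arrays. Prdm16, a further regulator of HSC maintenance, had 6.82, 6.26, 5.58, 6.25 and 7.91, again highest in WT5 and WT1. Lowest of the list was Hoxb3 at the 43.1st percentile. Of the 36 HOX genes 16 lay above the limit (44.4%, beside 54.4% of all genes), led by Hoxa9 (87.1st percentile).

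Surface and signaling genes of HSCs gave a similar picture, with 31 of 32 above the limit and a median percentile of 84.8. The highest was Adgrg1, an adhesion receptor also known as GPR56, at 11.18 ± 0.22 (99.5th percentile), followed by the tetraspanins Cd63 (99.2nd) and Cd9 (98.5th). Kit, the receptor of stem cell factor, had 10.03, 9.84, 9.56, 9.83 and 9.62 in WT1 to WT5 (97.3rd percentile). Procr, whose product (the activated protein C receptor) serves to purify HSCs, had 7.68, 7.33, 7.28, 6.89 and 7.34 (79.4th percentile). Slamf1, the gene of the sorted antigen CD150, had 6.79, 6.73, 6.61, 6.05 and 7.85, a spread of 0.66 at the 72.4th percentile. Only Fgd5, a gene used to mark HSCs, fell short of the limit, with a mean of 5.43 and 5.95, 5.50, 5.04, 4.72 and 5.92 in the single arrays. Its values in WT1 and WT5 were above the limit, and those of the other 3 were not. Ly6a was matched to no probe set of its own and was not analysed here.

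Of 33 genes known to be higher in aged mouse HSCs, 29 lay above the limit, with a median percentile of 74.0. No younger group was available, so these levels say nothing of age. Aldh1a1, a retinaldehyde dehydrogenase, had 9.82, 9.37, 9.19, 9.25 and 10.24 in WT1 to WT5 (96.7th percentile). Vwf, which encodes von Willebrand factor of platelets and endothelium, had 9.28, 8.05, 7.50, 7.77 and 9.30. Selp, the adhesion molecule P-selectin, had 8.58, 8.45, 7.93, 7.79 and 9.28, and Clu, an extracellular chaperone, had 8.58, 7.93, 7.62, 7.84 and 9.51. In all 4 genes WT5 was the highest array and WT1 the next. The list was led by the metallothioneins Mt1 (98.8th percentile) and Mt2 (98.5th) and ended with Pclo (27.4th).

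Transcripts of Cd48 and of several surface genes known from progenitors were also bright. They belong to the gate-negative and progenitor surface list, in which only Cd48 is an antigen of the SLAM gate. Cd48, whose product the SLAM gate excludes, had 7.12, 8.82, 8.48, 8.67 and 7.93 in WT1 to WT5 (89.1st percentile). Cd34, a sialomucin that long-term HSCs of adult mice largely lack, had 10.56, 10.79, 10.90, 11.06 and 10.26 and was the gene of rank 225. Flt3, a cytokine receptor of multipotent and lymphoid progenitors, had 6.80, 7.39, 7.08, 7.41 and 5.23 (72.0th percentile). Cd48 was lowest in WT1 and Flt3 in WT5. Of 13 genes of this progenitor group 11 lay above the limit. By contrast only 2 of 9 measured lineage-depletion antigens did, namely Itgam (83.6th percentile), the CD11b integrin of myeloid cells, and Cd5 (73.7th). Cd4 (6.6th), Ly6g (10.1st) and Cd3e (35.2nd) were at background by their means.

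**Figure D2:**
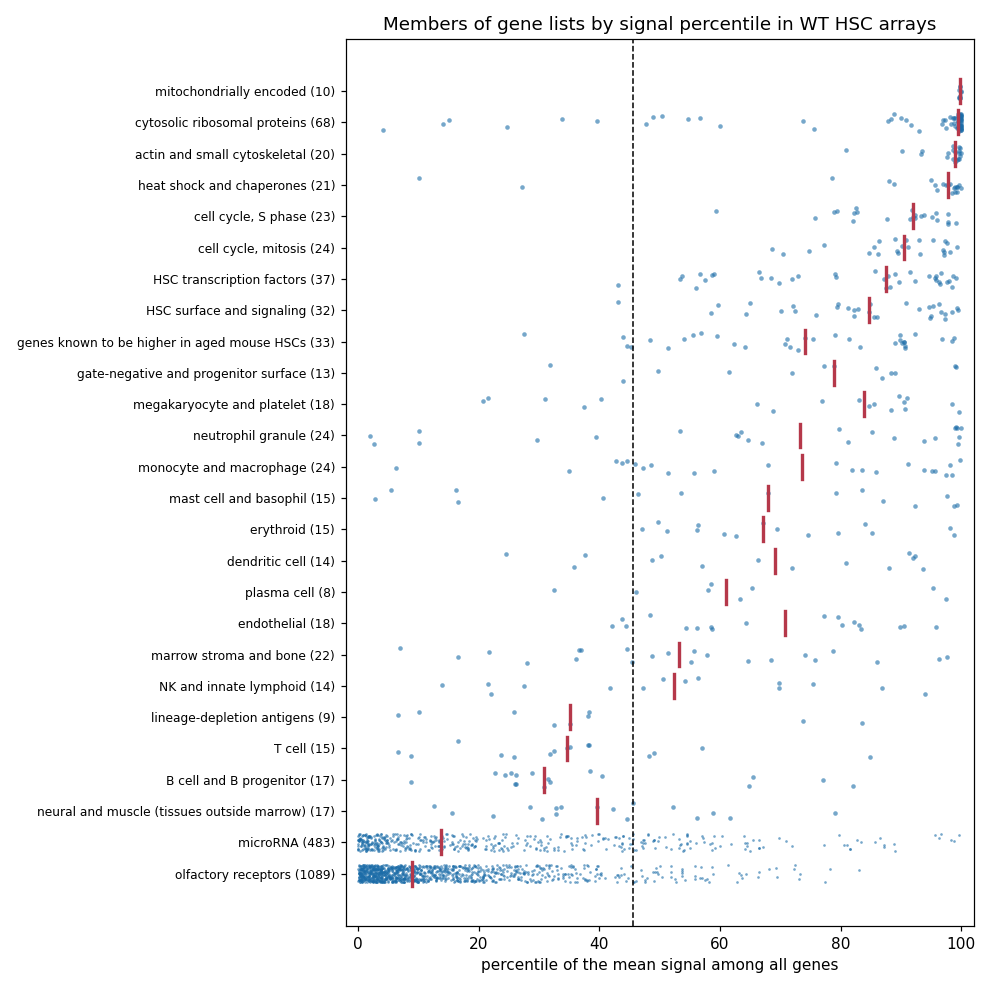
Percentile of the mean signal over the 5 WT arrays (x axis) for each member (points) of 26 gene lists (y axis, number measured in brackets), with the median of each list as a red bar and the background limit as a dashed line. Stem cell lists have medians of 87.4 and 84.8, while T cell, B cell and lineage-depletion lists lie below the limit at 34.7, 30.9 and 35.2.

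Neutrophil granule genes covered nearly the whole scale. Several made by early neutrophil precursors ranked at the top: Mpo, myeloperoxidase, had 11.27, 12.39, 12.05, 12.18 and 11.96 in WT1 to WT5 and was the gene of rank 25. The neutrophil serine proteases Elane (99.4th percentile) and Prtn3 (99.2nd) and the lysozyme gene Lyz2 (99.6th) were close behind. Genes known from later stages were spread widely: S100a8, a calprotectin subunit, was in the top 1% with a mean of 10.72, its partner S100a9 was at the 95.7th percentile, Ngp, a granule protein, at the 81.3rd, Camp, the cathelicidin, at the 53.3rd and Ltf, lactoferrin, at the 29.7th, below the limit. Over the list 18 of 24 genes lay above the limit. Of 24 monocyte and macrophage genes 19 did, with a median percentile of 73.5. The list ran from the 6.3rd to the 99.7th percentile, with 8 genes below the median of all genes and 1 in the top 1%. Ly6c2, the Ly6C antigen of monocytes, had a mean of 11.61 ± 0.21 (99.7th percentile) and Ccr2, the chemokine receptor that brings monocytes out of the marrow, 10.36 ± 0.54 (98.5th).

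Of 15 mast cell and basophil genes, 10 lay above the limit (66.7%, beside 54.4% of all genes) and 4 in the top 10%. The highest was Fcer1g (99.3rd percentile), the gamma chain of Fc receptors that many myeloid cells express. The basophil protease Prss34 had 9.93, 10.70, 10.93, 11.09 and 10.27 in WT1 to WT5 (98.8th percentile) and Mcpt8, the other basophil protease, 9.27, 9.83, 10.40, 10.59 and 9.37 (97.6th). Cpa3, a carboxypeptidase known from both cell types, was at the 87.0th. The 5 genes below the limit were the cytokine gene Il4 (40.6th) and the mast cell proteases Cma1 (16.6th), Tpsab1 (16.3rd), Tpsb2 (5.4th) and Mcpt4 (2.8th). Of 7 eosinophil genes, 5 (71.4%) lay above the limit and 1 in the top 10%, with a median percentile of 61.0. The highest was Prg2, the major basic protein of eosinophils, with 11.00, 10.12, 11.17, 11.20 and 9.46 (98.8th percentile). All 15 erythroid genes lay above the limit, from Car2 (98.8th), a carbonic anhydrase, to Epb42 (47.1st). Of 18 megakaryocyte and platelet genes 13 (72.2%) did. They were led by Rap1b (99.6th), a small GTPase of platelet signaling that many cells express, and Pf4 (98.5th), platelet factor 4.

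Most B and T cell genes were at background. Above the limit were 4 of 17 B cell genes and 4 of 15 T cell genes, against 9 of 14 NK and innate lymphoid genes (64.3%, median percentile 52.3). The last list was led by Nkg7, a granule membrane protein of cytotoxic cells, at the 94.0th percentile. In the B cell list these were Cd79b, Dntt, Cd79a and Vpreb2, while Ms4a1, which encodes CD20 of mature B cells, was at the 26.2nd percentile and Rag2, a recombinase subunit, at the 8.8th. Plasma cell genes were different, with 7 of 8 above the limit and a median percentile of 60.9. Their lowest member was at the 32.4th percentile, 2 of the 8 lay below the median of all genes and 2 in the top 10%. Jchain, which joins secreted antibodies, had 8.78, 10.03, 10.47, 9.99 and 9.99 in WT1 to WT5 (97.5th percentile), and Xbp1, the secretory factor of plasma cells, stood at the 95.2nd. Ighm, the mu heavy chain, had 10.99, 11.94, 12.50, 12.67 and 11.60 (99.9th percentile). WT1 was the lowest array for both Jchain and Ighm by these probe sets. Probe sets that Ighm shares with other immunoglobulin genes differed. The set with the highest mean had 11.07, 11.02, 12.05, 12.57 and 10.82 in WT1 to WT5, lowest in WT5. The next had 11.76, 11.35, 12.48, 11.30 and 10.62, also lowest in WT5. A dimmer set had 9.72, 11.27, 11.59, 9.42 and 11.08, lowest in WT4 and then WT1.

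Among cells of the marrow wall and frame, 15 of 18 endothelial genes (83.3%) and 13 of 22 stromal and bone genes (59.1%) lay above the limit, the second share being near the 54.4% of all genes. Several endothelial genes, such as Erg, Tie1 and Esam, are also expressed by HSCs. Cxcl12, the chemokine that stromal cells use to hold HSCs in the marrow, ranked at the 97.6th percentile, and Angpt1, an angiopoietin that HSCs themselves also make, at the 96.3rd. Lum, a stromal proteoglycan, was at the 7.0th. Of 17 genes of neural, muscle and other tissues outside marrow, 6 lay above the limit and 0 in the top 10%; the highest was Mbp (79.1st percentile). Xist, the RNA that silences an X chromosome in females, had 10.08, 11.12, 10.85, 11.05 and 9.87, whereas the Y-linked Uty, Eif2s3y and Kdm5d had means of 4.52, 4.43 and 4.41. This held in all 5 arrays.

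Cell cycle genes ranked high by signal. No other population was compared, so these ranks do not say how many cells were cycling. All 23 S phase genes and all 24 mitosis genes lay above the limit, with median percentiles of 91.9 and 90.4. Mki67, the proliferation antigen Ki-67, had 9.76, 9.92, 9.74, 9.76 and 9.62 in WT1 to WT5 (97.3rd percentile) and Top2a, the mitotic topoisomerase, 9.91, 10.10, 9.94, 9.85 and 9.86 (97.7th). An SD of 0.5 or more was found in 3 of the 23 S phase genes and in 0 of the 24 mitosis genes, beside 13.9% of all genes above the limit. That share is not matched for level: the median SD was 0.28 above the limit and 0.20 in the top 10%. Ube2c led the mitosis list (99.3rd percentile) and Cenpe ended it (68.6th). The inhibitors and G1 regulators, 19 of 20 above the limit, included Txnip (99.3rd), an inhibitor of thioredoxin, Cdk6 (95.8th) and Cdkn1b (90.7th), the inhibitor p27. Cdkn1c, the inhibitor p57 that keeps HSCs quiescent, had 5.61, 5.38, 5.13, 5.61 and 5.73, which straddled the limit at a mean of 5.49.

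In smaller response groups, 25 of 30 interferon-stimulated genes and 25 of 29 immediate early genes lay above the limit. Ifitm3, which blocks virus entry, was at the 99.5th percentile and Oas2, an antiviral synthetase, at the 30.4th. Zfp36l2, an RNA-binding protein that promotes mRNA decay, led the immediate early list (99.4th percentile), and Egr1, an early growth response factor of HSC quiescence, had 8.04, 7.40, 5.96, 7.33 and 7.71. Ahr itself had 6.78, 5.81, 5.74, 5.66 and 4.70 (51.9th percentile), highest in WT1 and under the limit in WT5. Its partner Arnt was at the 83.2nd percentile, and its classical target Cyp1a1 at the 23.2nd.

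Among 483 microRNA genes, 81 lay above the limit, with a median percentile of 13.8, and 6 reached the top 10%: Mir5099, Mir692-1, Mir449b, Mir665, Mir1964 and Mir703. These probe sets read the hairpin gene, so the arm is not known, and amplified total RNA need not hold the mature form. The RefSeq miRNA table matched 426 of the 483 and gave mature sequences for 4 of the 6. The miR-181 family, known for its part in lymphocyte development, shows how hairpins whose main arms share a seed can rank apart. Mir181d had 7.72, 7.78, 7.90, 7.69 and 8.06 in WT1 to WT5 (85.7th percentile), Mir181c lay at the limit with a mean of 5.51, and the other 4 hairpins were below it, down to Mir181a-1 at the 0.0225th percentile. Mature sequences of the bright hairpins and of the 5p arms of the miR-181 family are shown. Seeds (bases 2 to 8) are in capitals so that they can be compared. For Mir665 and Mir1964 only 1 arm is printed. Their other arms have the seeds GGGGCCU (miR-665-5p) and CGACUUC (miR-1964-3p).
miR-692: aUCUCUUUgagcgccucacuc
miR-665-3p: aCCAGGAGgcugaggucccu
miR-1964-5p: aGCUGGAGcacaaaagccggug
miR-703: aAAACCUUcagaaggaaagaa
miR-181a-5p: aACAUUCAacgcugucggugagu
miR-181b-5p: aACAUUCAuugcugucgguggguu
miR-181c-5p: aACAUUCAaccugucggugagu
miR-181d-5p: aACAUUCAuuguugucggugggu
The 4 miR-181 arms share the seed ACAUUCA, and the other 4 sequences each have a seed of their own.

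Variation between the 5 arrays was small for most genes. Above the limit the median SD was 0.28, and in the top 1% by signal it was 0.12. An SD of 0.5 or more was found in 1673 genes (13.9%) and of 1 or more in 134 (1.11%). Without WT5 the first of these counts was 1002. Correlations between arrays over all genes, a description of values that share a normalization, ran between 0.931 (WT4 and WT5) and 0.977 (WT2 and WT3). WT2, WT3 and WT4 were the most alike, with 0.972 or more for each pair. The first principal component over genes above the limit took 46.5% of the variance and set WT5 apart, and the second took 29.9% and set WT1 apart. In WT5, 942 genes differed by at least 1 log2 unit from the mean of the other arrays, 623 of them lower, against 485 in WT1, 215 in WT4, 126 in WT3 and 107 in WT2. Olfactory receptors were also highest in WT5, by a little: their score, the mean deviation of members from their own 5-array means, was 0.06 in WT5 and -0.03 to 0.02 in the others.

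The steadiest genes between the median and the top 1% were Mcee, with 7.86, 7.85, 7.86, 7.83 and 7.86 in WT1 to WT5, followed by Mdh1, Aif1l, Lsm12, Tcf25, Nmur1, Gramd1b, Leprotl1, Hprt and Yae1d1, all with an SD of 0.01 to 0.04. Mcee encodes methylmalonyl-CoA epimerase and Mdh1 the cytosolic malate dehydrogenase. Hprt, a purine salvage enzyme used as a PCR reference, had 9.19, 9.24, 9.20, 9.16 and 9.23. Gapdh, the glycolytic enzyme used likewise, had an SD of 0.14, and Tfrc, the transferrin receptor, 0.76.

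Immunoglobulin genes varied most. Of 21 measured, 16 lay above the limit. These took 9 of the 10, 10 of the 20 and 11 of the 200 largest SDs. Ighg3, the gamma-3 heavy chain constant gene, had 4.95, 4.67, 14.03, 13.31 and 4.81 in WT1 to WT5, at background in 3 arrays and above the mean signal of every gene in WT3 and WT4. Its second probe set had a mean of 4.37. Kappa light chain segments were bright in different arrays. Igkv8-30 had 4.29, 11.67, 9.51, 4.36 and 4.11, bright in WT2 and WT3 alone. Igkv15-103 had 11.85, 10.59, 13.31, 6.09 and 5.75, dim in WT4 and WT5. Igkv1-133 had 4.69, 7.80, 7.08, 7.61 and 13.58, brightest in WT5. Variable segments resemble each other in sequence, so a probe set can also take signal from a related segment. Igkv9-120 (4.13, 9.60, 9.61, 9.48 and 10.66) was at background in WT1 alone. Igkv4-70 had 12.67, 12.79, 13.58, 10.61 and 8.33, above the limit in every array. Igkv4-72, Igkj1, Iglv1 and Igkv6-14 had SDs of 2.36, 2.22, 2.09 and 1.97. The plasma cell score was -0.61, -0.15, 0.68, 0.27 and -0.18 in WT1 to WT5. Its part in the immunoglobulin differences was not tested.

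**Figure D3:**
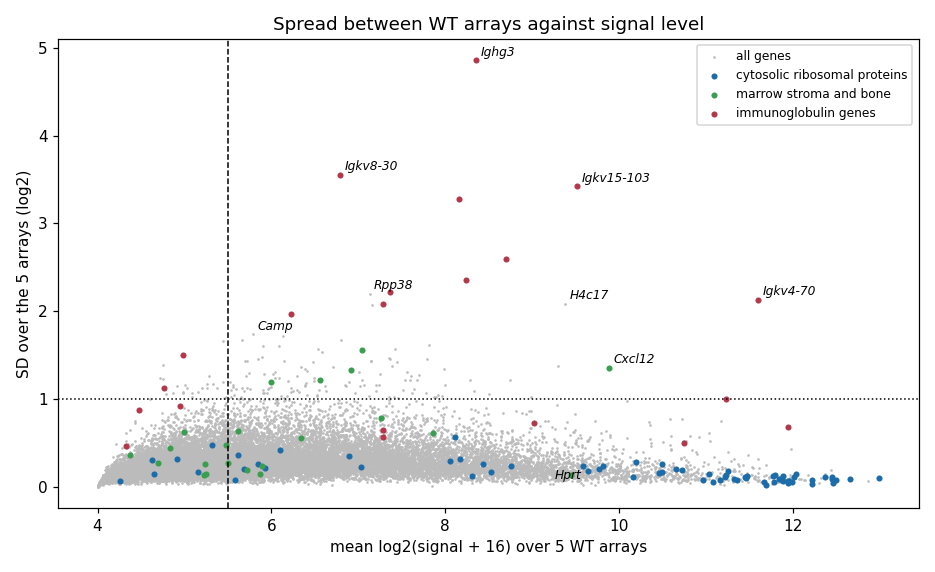
SD over the 5 WT arrays (y axis, log2) against the mean log2(signal + 16) (x axis) for all 22184 genes, with immunoglobulin, stromal and ribosomal protein genes in colour. The dashed line is the background limit and the dotted line an SD of 1; immunoglobulin genes hold 9 of the 10 largest SDs above the limit.

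Outside the immunoglobulin genes, several large SDs came from 1 array alone. Rpp38, a subunit of RNase P, had 6.67, 6.09, 5.82, 11.02 and 6.04, and Rundc1 had 6.64, 6.33, 6.44, 10.79 and 5.59, so that WT4 stood alone in both. WT5 stood alone in the single-symbol probe set of H4c17, a histone H4 gene, with 8.74, 8.28, 8.51, 8.29 and 13.09. A set that H4c17 shares with other H4 genes was steady, with 12.32, 12.21, 12.17, 12.17 and 12.27. WT5 also stood alone in Gm10584 with 5.12, 5.15, 5.26, 5.21 and 8.75. Prom1, the surface antigen CD133, was high in WT2 and WT3 (5.17, 7.93, 8.06, 4.73 and 4.75). Atp1b2, a sodium pump subunit, was highest in WT1 (9.31, 6.14, 7.35, 6.42 and 4.79). AF357425 (7.04, 4.75, 4.65, 4.03 and 7.83) and Rsl1 (6.95, 5.59, 5.01, 4.46 and 8.43), a zinc finger repressor, were high in WT1 and WT5.

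Stromal genes made up a second group. Mgp, the matrix Gla protein, had 5.65, 8.60, 8.97, 9.27 and 6.56 in WT1 to WT5. Cxcl12 had 8.52, 10.76, 10.25, 11.45 and 8.44. Igfbp5, a binding protein of insulin-like growth factors, had 5.44, 7.68, 7.57, 9.05 and 5.49. In each of them WT4 was highest, and WT1 and WT5 were lower than the other 3 arrays without overlap. Lepr, the leptin receptor that marks perivascular stromal cells, had 4.92, 6.95, 7.14, 8.02 and 5.79, and Ibsp, the bone sialoprotein, 5.75, 6.78, 7.96, 8.54 and 5.55. In both WT4 was again highest and WT1 and WT5 the 2 lowest. Other stromal genes stayed steady, such as Col1a1 (SD 0.14) and Angpt1 (SD 0.13). Cyp1b1, a known target of AHR that stromal cells also express, was bright only in WT4 (5.75, 6.14, 5.64, 9.29 and 6.07). Mgp and Cyp1b1 are not in the stromal and bone list. Of its 13 genes above the limit, 5 had an SD of 1 or more, beside 1.11% of all genes above the limit. The score of the list was -0.34, 0.06, 0.11, 0.61 and -0.44.

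**Figure D4:**
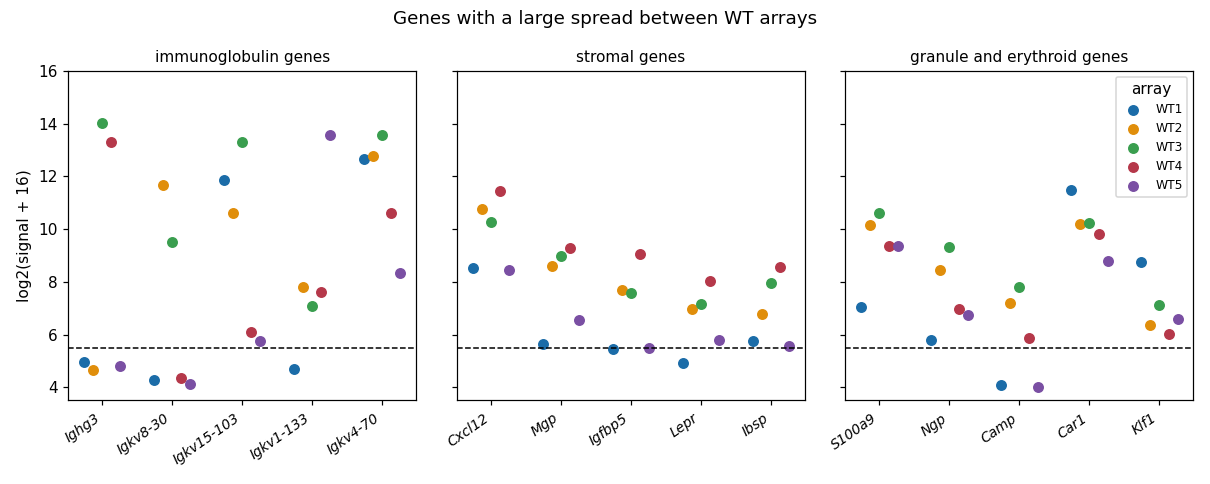
log2(signal + 16) in each WT array (coloured points) for 5 immunoglobulin, 5 stromal and 5 granule or erythroid genes (x axis), with the background limit as a dashed line. Different arrays are bright for different immunoglobulin segments. WT1 and WT5 are the 2 lowest arrays in all 5 stromal genes plotted, which are genes with a large spread.

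Genes known from neutrophils and red cells formed the third group. Late neutrophil genes were lowest in WT1 or WT5: S100a9 had 7.04, 10.14, 10.62, 9.35 and 9.34 in WT1 to WT5, Ngp 5.79, 8.44, 9.34, 6.95 and 6.74, and Camp 4.09, 7.18, 7.79 and 5.88 in WT1 to WT4, with WT5 at the floor of the scale. Retnlg, a resistin-like protein of neutrophils, went another way, with 5.44, 6.08, 5.16, 7.07 and 8.67. A low in WT1 was not particular to late genes, since WT1 was also the lowest array in Mpo, Elane, Prtn3 and Lyz2. Many erythroid genes were highest in WT1. Klf1, the master regulator of the red cell program, had 8.73, 6.35, 7.10, 6.02 and 6.58, Car1 had 11.48, 10.17, 10.23, 9.82 and 8.77, and Rhag, a Rh complex protein, 8.17, 6.21, 7.08, 6.03 and 4.95. Ermap, Rhd and Sptb had SDs of 1 or more and likewise their highest value in WT1. Of the 15 erythroid genes, 5 had an SD of 1 or more, beside 1.11% of all genes above the limit. Over the list, the erythroid score was 1.13, -0.15, 0.00, -0.46 and -0.52.

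Stem cell lists and lists of other cells ranked the 5 arrays differently, with exceptions. Scores of the HSC transcription factors were 0.11, -0.03, -0.20, -0.15 and 0.27 in WT1 to WT5, and those of the HSC surface genes 0.18, -0.05, -0.20, -0.16 and 0.24. Genes known from aged HSCs had a wider range, 0.32, -0.08, -0.42, -0.42 and 0.60, again highest in WT5 and then WT1. The neutrophil granule score was -0.80, 0.35, 0.54, 0.09 and -0.17, and the monocyte score -0.51, 0.26, 0.24, 0.17 and -0.16. That of the gate-negative and progenitor surface list was -0.57, 0.19, 0.53, 0.36 and -0.51. WT1 and WT5 were thus the 2 highest arrays in the 3 stem cell lists. They were the 2 lowest in the neutrophil, monocyte, mast cell, plasma cell and stromal lists, and in the gate-negative and progenitor surface list. Other lists did not follow this split. The megakaryocyte score was 0.23, -0.27, -0.30, 0.29 and 0.05, with WT1 and WT5 above WT2 and WT3. The endothelial score was -0.05, 0.06, -0.32, 0.18 and 0.13, lowest in WT3, and the eosinophil score 0.12, -0.11, 0.48, -0.03 and -0.46, with WT1 second highest. Genes shared by lists, such as Vwf and Selp, enter each of their scores. Of the 134 genes with an SD of 1 or more, WT1 and WT5 were the 2 lowest arrays in 56, and the next pair, WT2 and WT5, in 20. The cytosolic ribosomal protein score stayed between -0.06 and 0.09. The part of the other cells' transcripts in this pattern was not tested.

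**Figure D5:**
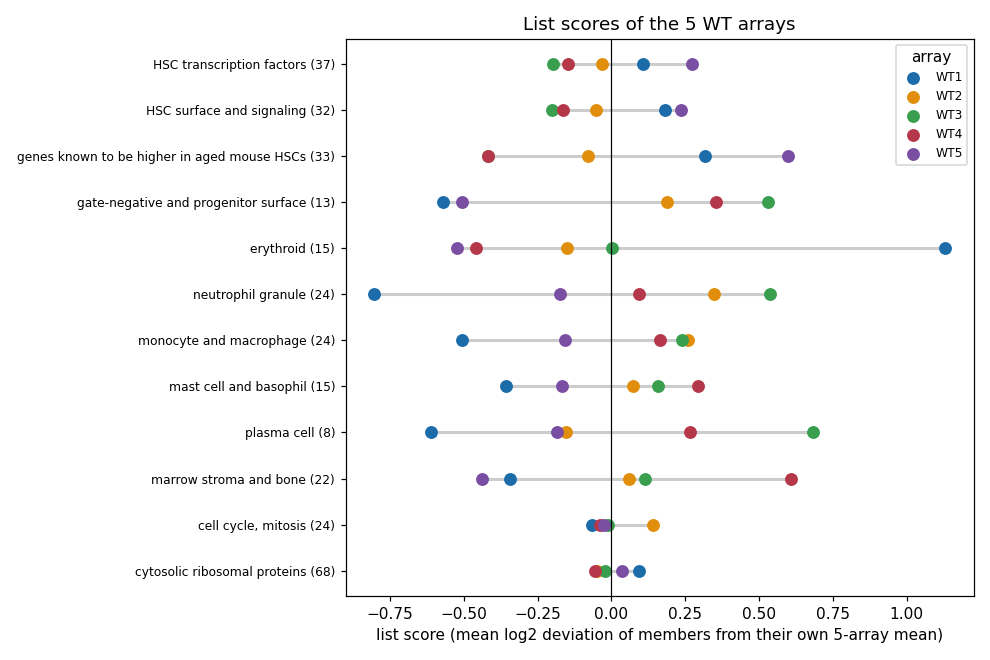
Score of 12 gene lists (y axis, number of genes in brackets) in each of the 5 WT arrays (coloured points), as the mean log2 deviation of the members from their own mean over the arrays (x axis). The 3 stem cell lists place WT1 and WT5 on the right, while the erythroid list has WT1 alone at 1.13.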

How the data were processed

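The deposited table held 1 intensity per probe set and array on a linear scale, made by the authors. Per the labels, cDNA was prepared with the Nugen WT-Ovation PicoSL kit, and Affymetrix Expression Console is the tool that the submitters' processing notes list, without a version. IterPLIER, with background subtraction and quantile normalization, is what the study's methods give for its arrays, and whether these arrays are covered is not stated. Sorted values of WT arrays with neighbouring replicate numbers differed by at most 47.7 signal units, so differences in total RNA between arrays are not visible. Gene symbols came from the platform annotation.

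A pseudocount of 16 was added before log2, which compresses differences of dim genes. Genes were described by mean, SD, percentile and list scores, with no test, since 1 group was studied. Genes were named by rule: the 20 highest means, the 20 largest SDs above the background limit, the 10 smallest SDs between the median and the top 1%, and members of lists. Members, 56 lists and families, and rules were chosen with earlier results of these data known. A further 5 families (immunoglobulin, T-cell receptor, mitochondrial, histone and miR-181 genes, by current symbols) and genes named for their place in 1 array were chosen after values were seen. Symbols that matched no probe set of their own were left out of the counts. Promoter and miRNA sequences are from RefSeq (GRCm38.p6). Alternatives covered the pseudocount, the probe set rule, averaging, normalization, the background limit, the spread measure and leaving out each array. Python 3.11.15, numpy 2.4.6, pandas 2.3.3 and matplotlib 3.10.9 were used. The ranking was also run on simulated arrays in which some genes were given a far larger spread than the rest. That run checks the code and lends no weight to the results.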

Additional observations from a re-analysis of the deposited data

Results flagged for a closer look

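For 59 lists and 169 genes named in the text it was asked whether 1 array stood apart, by the gap between the highest or lowest value and its neighbour as a share of the range of the 5 values. A share over 0.71 was reached by 3 lists and 14 genes, and chance alone gives about 1 in 20. Many of these genes were named for their spread or for their value in 1 array, so their number is not read against that share. Over all genes above the background limit it was reached by 913 (7.56%), with WT5 the array apart in 502 and WT1 in 219. Among lists the share was 0.743 for the mitosis genes (WT2 high), 0.743 for defensins (WT5 high) and 0.848 for cytochrome P450 genes (WT4 high), all with scores within 0.15 of 0.

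WT5 stood apart high in Gm10584 (0.959) and in the single-symbol set of H4c17 (0.904). It stood apart low in Cd79a (0.722), a subunit of the B cell receptor, and Flt3 (0.72). WT4 stood apart high in Cyp1b1 (0.863), Rpp38 (0.836), Rundc1 (0.799) and Rpl41 (0.763). WT1 was the low array in Igkv9-120 (0.819) and Jchain (0.717). WT3 was low in Rpl28 (0.878) and ND4 (0.812) and high in Mir181a-1 (0.982), and WT2 was high in Ly6e (0.75). In Rpl28, Rpl41, ND4 and Ly6e the whole range was at most 0.36 log2 units, and in Mir181a-1 all values were at background.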

How the results depend on the processing

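The 22 lists with a median percentile over 75 numbered 22 to 25 under every alternative tried. The 12078 genes above the background limit numbered 11967 to 12223, except with the 99th percentile of the background families as the limit, which left 7298. Of the 100 brightest genes 95 or more remained, apart from averaging a gene's probe sets, which kept 76. The number of genes with an SD of 1 or more depended on the scale of dim genes: a pseudocount of 1 gave 333 and one of 64 gave 39, and there were 72 with the higher limit and 83 with the median absolute deviation in place of the SD, against 134. The alternatives that left out each array gave 101 to 189, and leaving out WT5 kept 121 of the 200 largest SDs, while the median absolute deviation kept 74. Leaving out the immunoglobulin genes, chosen after seeing the data, gave 124. Percentiles among genes above the limit alone differ by construction. The AHR pathway's median percentile of 51.9 was 44.9 without WT1 and 57.8 without WT5. No paired analysis was possible because the results come from no test and 1 group was studied. Depth is not defined for arrays, and signals near the limit cannot be told from background.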

Other observations

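Probe sets that carry several gene symbols were outside the ranking, although 1023 of 1816 (56.3%) lay above the background limit. They hold most replication-dependent histones, whose copies the array cannot separate: a set for 12 H2b genes, led by H2bc6, had a mean of 12.75 ± 0.04, and a set for 8 H3 genes, led by H3c15, 12.35 ± 0.06. Adult hemoglobin was read by shared sets as well. The alpha-globin set for Hba-a1 and Hba-a2 with the higher mean had 9.27, 8.76, 8.41, 7.74 and 6.79 in WT1 to WT5, and the beta-globin set for Hbb-b1, Hbb-bs and Hbb-b2 with the highest mean had 9.57, 10.24, 9.77, 9.13 and 7.58. WT5 was lowest in both. The set shared by Cd74, the invariant chain of MHC class II, and Mir5107 had 8.13, 9.10, 10.03, 9.21 and 7.97, lowest in WT5 and WT1. A set for Igkv4-53, Igkj1 and Igkv6-23 had 12.03, 12.34, 12.73, 12.36 and 12.40, steadier than the single kappa segments.

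Probe sets without a symbol were above the limit in 4623 of 16004 cases (28.9%). In WT1 the red cell factor Gata1 had 9.21, against 6.99, 7.37, 7.07 and 6.66 in WT2 to WT5, a gene outside the lists that was looked at after the erythroid values were seen. Of 78 small nucleolar RNA genes, 43 lay above the limit (55.1%), near the 54.4% of all genes, and 6 of these 43 had an SD of 1 or more, beside 1.11% of all genes above the limit.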
